A study of Homo sapiens with 12 samples.

Results

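The mRNAs of the cytosolic ribosomal proteins, the protein parts of the ribosome outside the mitochondria, were followed one by one in SHI-1 cells, an acute myeloid leukemia line that carries the MLL-AF6 fusion. A gene was a member when its name was RPL or RPS followed by a number and an optional A, X or L, or was RPLP0, RPLP1, RPLP2 or RPSA, and when its value was at least 10 in at least 3 of the 12 libraries. The rule took 79 genes, 47 of the large and 32 of the small ribosomal subunit, of 13502 genes tested and 14866 listed. Every gene that matched by name passed the filter on low values. The paralogs RPL3L and RPL10L were not analysed here, and pseudogenes, read-through transcripts and the RPS6 kinases were kept out of the family.

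The study asked whether niclosamide (NSM), an anthelmintic, added to disulfiram (DSF), an inhibitor of aldehyde dehydrogenase used against alcohol dependence, suppresses the gene programs downstream of MLL fusions further than either drug. Cells were treated for 16 h with the solvent DMSO, with 0.3 µM disulfiram and 1 µM copper (DSF), with 5 µM niclosamide (NSM) or with disulfiram, copper and niclosamide together (DSF+NSM). Each group held 3 libraries from independent experiments on this 1 line, and poly(A) RNA was sequenced. Whether copper was also given to the DMSO and NSM cells is not given in the sources used here, so DSF and copper cannot be told apart.

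The values are normalized read counts, scaled by the authors over more libraries than the 12 used. Their sums were 14.0 to 14.4 M per library with DMSO, 14.9 to 15.3 M with DSF, 16.5 to 17.5 M with NSM and 22.7 to 25.6 M with DSF+NSM, and the reads behind them were estimated at 10.2 to 19.0 M. Because the sums differed between the groups, counts of members called are given on the authors' scaling and again with the libraries brought to equal sums. Many changes of single members, but not all, are given both ways. Log2 fold changes are on log2(value + 1), tests are limma's moderated tests over all 13502 genes with Benjamini-Hochberg adjustment, and a gene was called at an adjusted p under 0.05. The third NSM library stood apart from the other NSM libraries. Its rank correlation over the members was 0.80 with each of them, against 0.99 between them. Counts of members called that rest on the NSM group, and some changes of single members, are therefore also given without the third NSM library. All 9 myeloid markers checked were listed. Their summed values were 66591 to 75911 per library with DMSO, 45752 to 51976 with DSF, 31798 to 37706 with NSM and 33699 to 34878 with DSF+NSM. This sum was lower in every treated library, but with DMSO MPO alone made up most of it (mean 58058). On the authors' scaling 2 markers were called higher and 1 lower with DSF (11.9% and 5.95% of all genes). With NSM the counts were 4 and 4 (25.4% and 23.7%) and with DSF+NSM 2 and 2 (28.3% and 24.5%). With equal sums they were 2 and 1 (8.95% and 9.24%), 3 and 5 (16.4% and 33.4%), and 0 and 7 (11.4% and 56.1%). The part of this in the results was not tested. T lymphoid markers summed to 97.2 to 192 and the B lymphoid marker MS4A1 was listed at 0 in every library. In these bulk samples fewer cells of a type and less RNA per cell cannot be told apart.

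Ribosomal proteins are made in near equal numbers, since each ribosome takes a single copy of most of them, and their mRNAs are among the most abundant of a growing cell. Most of these mRNAs begin with a cytosine followed by an unbroken run of pyrimidines, the 5′ terminal oligopyrimidine (TOP) tract, through which mTORC1 and the RNA-binding protein LARP1 control their translation and stability. In leukemia the family is known as a readout of growth and, when its members fall out of balance, as a source of p53 activation through free RPL5 and RPL11.

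The genomic sequence at the transcription start is shown for the 3 members with the highest log2 fold change with DSF+NSM and the 3 with the lowest, so that their tracts can be compared. Each line is 30 bases, 10 before the RefSeq start and 20 from it on, in GRCh38.p14, with the tract in capitals. The windows are chr11:809957-809986 (plus strand) for RPLP2, chr19:54200848-54200877 (plus) for RPS9, chr19:41860245-41860274 (plus) for RPS19, chr12:112409266-112409295 (minus) for RPL6, chr12:56041908-56041937 (plus) for RPS26 and chr15:63157458-63157487 (minus) for RPS27L.
RPLP2: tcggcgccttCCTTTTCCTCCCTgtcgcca
RPS9: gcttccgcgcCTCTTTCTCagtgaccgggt
RPS19: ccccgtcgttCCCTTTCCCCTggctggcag
RPL6: gacggcgcgtgcactgtgttcctggtcctg
RPS26: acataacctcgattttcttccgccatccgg
RPS27L: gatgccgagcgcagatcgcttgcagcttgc

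The tracts of RPLP2, RPS9 and RPS19 ran over 13, 9 and 11 bases, and none began at the start listed for RPL6, RPS26 and RPS27L. A C at the start with at least 4 further C or T was present in 46 of the 63 members with a RefSeq start (73.0%), in 7.60% of tested genes with a start and in 5.14% of all 27305 promoters searched, taking for each gene the listed start with the longest tract. The 17 members without it were RPL3, RPL4, RPL6, RPL9, RPL10A, RPL15, RPL17, RPL19, RPL27, RPL32, RPS4X, RPS7, RPS15, RPS26, RPS27L, RPS28 and RPS29. A missing match says only that these letters do not begin at the listed start. With DSF+NSM the median log2 fold change was 1.06 over the 46 members with a tract (range 0.59 to 1.40) and 0.81 over the 17 without (range -0.38 to 1.29), given as a description.

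In DMSO-treated cells all but 2 members were abundant. Compared per length, as the mean value per kilobase of coding sequence, the median member was RPS25 with 44548. The lowest were the paralogs RPL39L with 1066 and RPS27L with 3083. RPL39L replaces the tunnel protein RPL39 mainly in male germ cells and RPS27L is a p53-induced copy of RPS27. Their canonical counterparts RPL39 and RPS27 stood at 104174 and 57314 per coding kilobase. The highest value, 427963, belonged to RPL41, whose coding sequence is only 75 bases, so that reads from its untranslated ends weigh heavily in it.

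As a share of all values in a library, the 79 members took 13.5, 12.7 and 11.9% in the DMSO libraries and 12.5, 13.3 and 13.2% in the DSF libraries, which overlapped. In the NSM libraries they took 17.6, 17.2 and 12.6%, and in the DSF+NSM libraries 15.3, 15.4 and 13.3%. The first and second library of each of these groups lay above all DMSO libraries, whereas the third NSM and the third DSF+NSM library lay within the DMSO range. Cytosolic rRNA genes, which poly(A) selection should leave out, took 0.643 to 7.96% of a library, most in the DSF+NSM group, and with them left out the members took 13.7, 13.1 and 12.1% with DMSO and 16.6, 16.4 and 14.4% with DSF+NSM. The summed values of the large subunit genes were 1.59, 1.59 and 1.61 times those of the small subunit genes with DMSO, 1.58, 1.57 and 1.59 times with DSF, 1.63, 1.58 and 1.58 times with NSM and 1.55, 1.56 and 1.55 times with DSF+NSM. This ratio was lower in every DSF+NSM library than in any DMSO library, and the NSM libraries overlapped with DMSO.

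**Figure D1:**
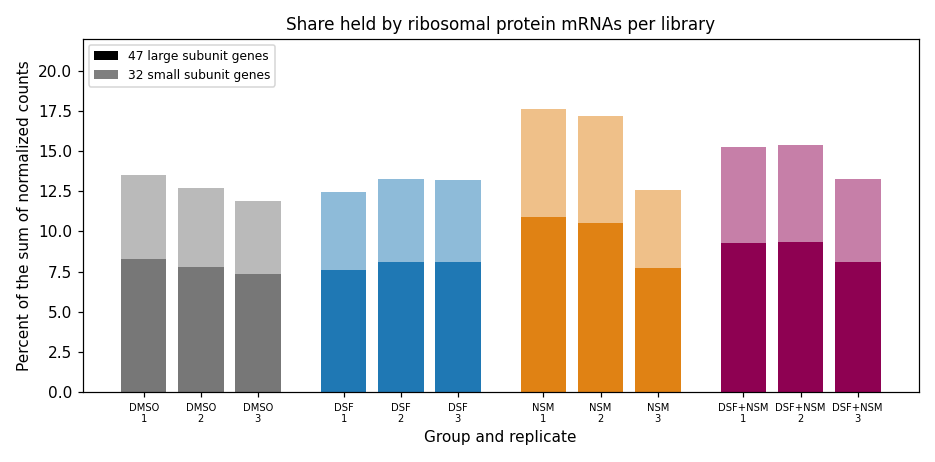
Share of the summed values of each library taken by the 47 large and 32 small subunit genes, in percent, as stacked bars for the 3 libraries of each group on the authors' values. The first and second NSM libraries reach 17.6 and 17.2%, and the third 12.6%, within the DMSO range of 11.9 to 13.5%.

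With DSF alone few members passed the test. RPL28, a large subunit protein, rose and RPL7, an RNA-binding protein of the large subunit, fell, while RPS27L, RPS26, RPL5 and RPL6 had the lowest fold changes beside RPL7. On the authors' scaling 1 member was called higher, against 11.9% of all genes, and 1 lower, against 5.95%. The median log2 fold change of the members was 0.16 and that of all genes 0.047. With equal sums the counts were 1 higher (8.95% of all genes) and 5 lower (9.24%), the latter being RPL5, RPL6, RPL7, RPS26 and RPS27L.

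RPL28 had values of 17319, 16972 and 16556 with DMSO and 20867, 23036 and 23099 with DSF. Every DSF library lay above every DMSO library (log2 fold change 0.40, SE 0.12, adjusted p = 0.0361, with equal sums 0.30, adjusted p = 0.0443). RPL7 had values of 39408, 37348 and 33475 with DMSO and 26612, 26757 and 31427 with DSF. The groups did not overlap, and RPL7 fell by 0.38 on the log2 scale (SE 0.11, adjusted p = 0.0367). RPL5, which with RPL11 carries the 5S rRNA, had values of 26051, 24384 and 24537 with DMSO and 19647, 19711 and 23637 with DSF. These were also separate, and the call depended on the scaling (authors' scaling -0.26, adjusted p = 0.159, equal sums -0.35, adjusted p = 0.0394). RPL11 itself had a log2 fold change of 0.18 and did not pass the test (adjusted p = 0.384).

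At the upper end RPL10, a protein of the subunit joining step, and the stalk proteins RPLP0 and RPLP1, which recruit translation factors, had log2 fold changes of 0.46, 0.40 and 0.44 with DSF, and none passed the test (adjusted p = 0.218, 0.225 and 0.31). All DSF libraries lay above all DMSO libraries for 40 members, against 33.4% of all genes, and below them for RPL5, RPL6, RPL7, RPL22, RPS26 and RPS27L. The share of all genes that lay below was not counted, so these names cannot be set against it. The call of RPL28 was lost when any 1 of the 6 DMSO and DSF libraries was left out, and that of RPL7 without the first or second library of either group or the second DSF+NSM library. Over all libraries left out in turn 0 to 22 members were called. The width of the error depended on the NSM group, since the spread is shared over the 12 libraries. When the third NSM library was left out, 17 members were called higher with DSF and 5 lower. A fit of the DMSO and DSF libraries alone called 40 higher and 10 lower. Shares of all genes called in these fits are not given here, so the counts cannot be set against them.

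With NSM most of the family rose, by a median of 0.55 on the log2 scale. RPL36A and RPL26 of the large subunit and RPS25 and RPS27 of the small subunit rose most, together with RPL28, whereas RPS27L fell and RPS26, RPL6, RPL39L and RPSA did not pass the test. On the authors' scaling 52 of the 79 members were called higher, against 25.4% of all genes, and 1 lower, against 23.7%. Quartiles of the members' log2 fold changes were 0.44 and 0.67, and the median of all genes was 0.014. With equal sums 32 members were called higher (16.4% of all genes) and 3 lower (33.4%), with medians of 0.28 for the members and -0.25 for all genes. Without the third NSM library the authors' scaling gave 75 higher and 1 lower, with a median of 0.73. The only members then not called were RPL6, RPL39L and RPS26. Shares of all genes called without that library are not given here.

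RPL36A had values of 14015, 12927 and 12422 with DMSO and 27467, 23819.7 and 35150.0 with NSM. Every NSM library was higher, the third the most, and the log2 fold change was 1.12 (SE 0.17, adjusted p = 0.000157, equal sums 0.85, adjusted p = 0.000326). RPL26, which lines the exit tunnel and also binds p53 mRNA, had values of 22776, 20640.1 and 34601 with NSM against 13114, 12194 and 10910.4 with DMSO. The third NSM library stood well above the other two, and without it the log2 fold change was 0.85 instead of 1.07 (adjusted p = 0.000139 and 0.000687). RPS25, needed for initiation at some internal entry sites, had values of 18039, 16972 and 15105 with DMSO and 32193, 30115 and 34791 with NSM. Its NSM libraries lay close together and all above DMSO (log2 fold change 0.96, SE 0.13, adjusted p = 7.22e-05, equal sums 0.69, adjusted p = 0.000192).

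RPS27L had values of 846, 801 and 684 with DMSO and 506, 482 and 447 with NSM. It fell by 0.69 on the log2 scale without overlap (SE 0.18, adjusted p = 0.00633), whereas its parent RPS27 rose by 0.87 (adjusted p = 0.000283). RPS26, which contacts mRNA upstream of the start codon, had values of 6824, 6770.1 and 6205 with DMSO and 5639, 4772 and 5873 with NSM. The NSM libraries were the lower ones, but the difference passed the test only with equal sums (authors' scaling -0.29, adjusted p = 0.146, equal sums -0.56, adjusted p = 0.0039). RPL6, a large subunit protein also found at sites of DNA damage, had values of 35007, 34998 and 32903 with DMSO and 36602, 34412 and 32132 with NSM. These overlapped, with a log2 fold change of 0.0019 on the authors' scaling and a 95% interval of -0.24 to 0.25. With equal sums RPL6 turned in direction and was called lower (-0.27, adjusted p = 0.0344). All NSM libraries lay above all DMSO libraries for 48 members, against 29.1% of all genes, and below them for RPS26 and RPS27L. The share of all genes that lay below was not counted here either.

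With DSF+NSM nearly every member rose on the authors' scaling, by a median of 1.01 on the log2 scale. RPLP2, a stalk protein, RPS9, a small subunit protein at the mRNA entry, RPS19, the gene most often mutated in Diamond-Blackfan anemia, RPS12 and RPL36A rose most. RPS27L, RPS26, RPL6, RPL39L and RPSA were the 5 members not called. In numbers, 74 members were called higher, against 28.3% of all genes, and 0 lower, against 24.5%, and at an unadjusted p under 0.05 75 members passed. Quartiles of the members' log2 fold changes were 0.84 and 1.16, and the median of all genes was 0.030. With equal sums the member median was 0.23 and that of all genes -0.74, so that equal sums lowered the fold changes of all genes together. On that scaling 18 members were called higher (11.4% of all genes) and 6 lower (56.1%). RPL15 and RPL17 were called higher on the authors' scaling (0.42 and 0.43, adjusted p = 0.00389 and 0.00875) and lower with equal sums (-0.36 and -0.36, adjusted p = 0.00348 and 0.0111). All DSF+NSM libraries lay above all DMSO libraries for 77 members, against 36.4% of all genes, the exceptions being RPS26 and RPS27L.

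**Figure D2:**
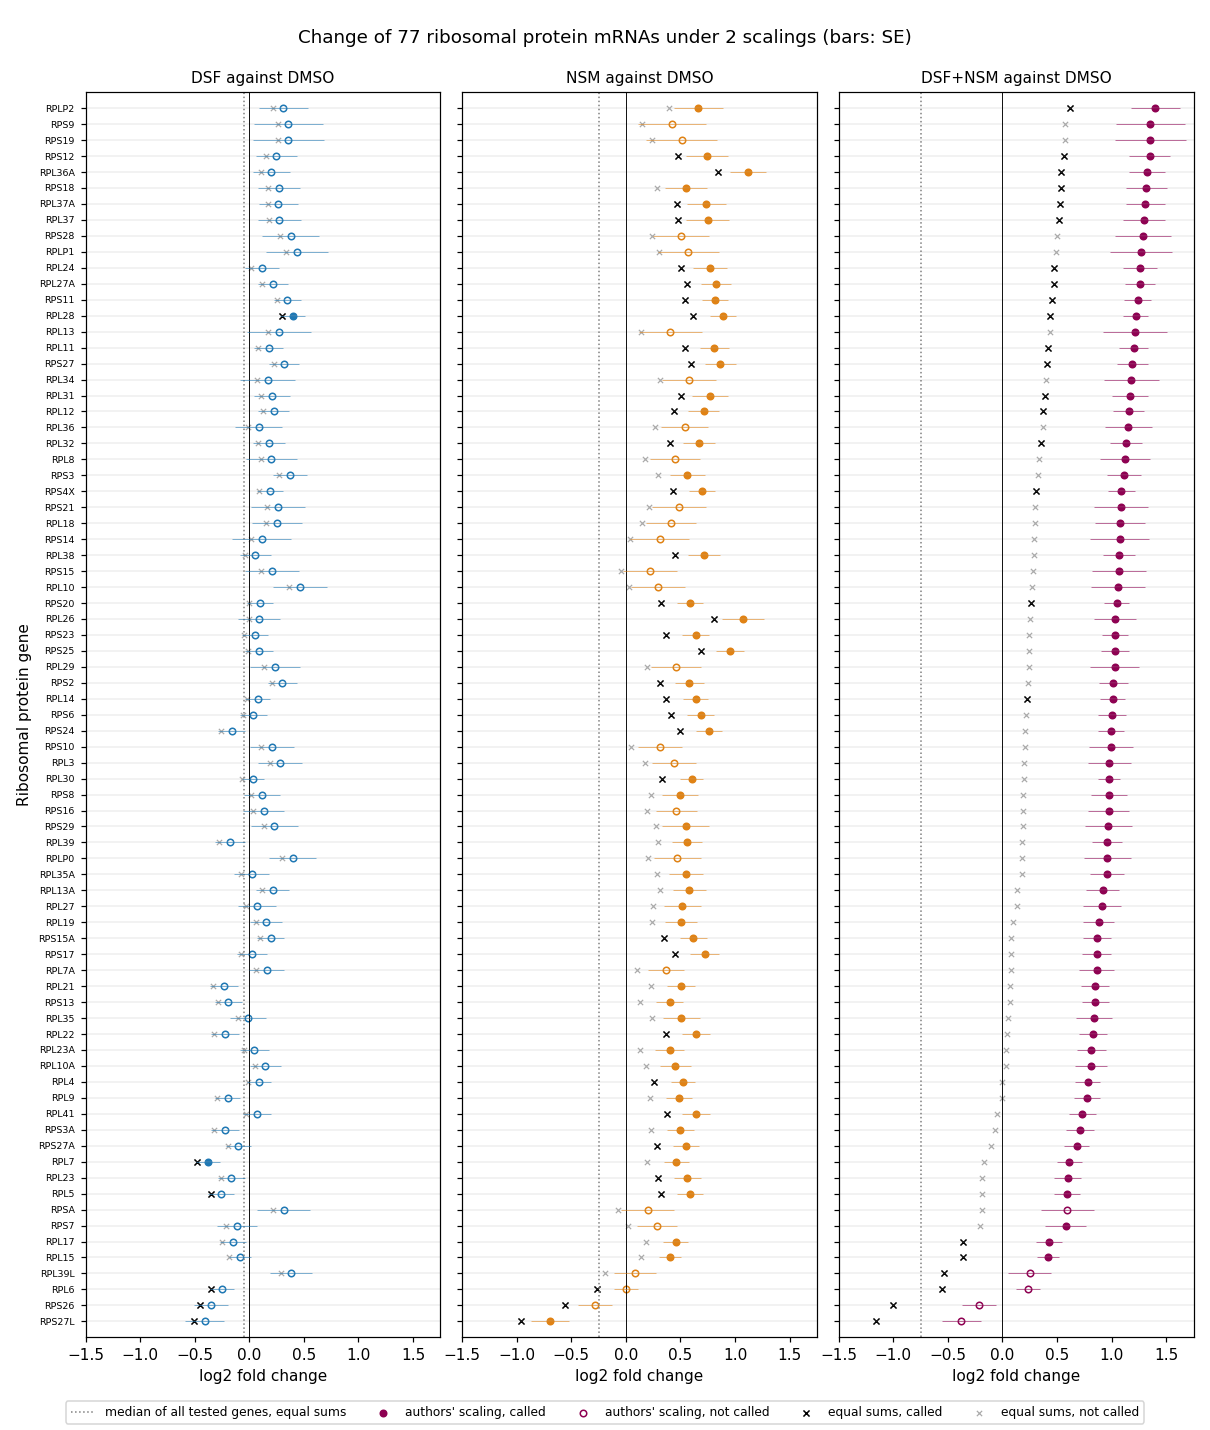
Log2 fold change of 77 of the 79 members against DMSO with DSF, NSM and DSF+NSM, in the order of the DSF+NSM change. Circles are the authors' scaling with bars of 1 SE, filled where called at an adjusted p under 0.05, crosses are equal sums, and the dotted line is the median of all genes with equal sums. With DSF+NSM 72 of the circles shown are filled to the right of 0, and RPS27L and RPS26 lie to the left.

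RPLP2 had values of 11746, 10995 and 9597 with DMSO, 12521, 13723 and 13772 with DSF, 21513, 19935 and 11468 with NSM and 32652, 32637 and 21400.1 with DSF+NSM. All DSF+NSM libraries exceeded all others except that the third lay below the first NSM library, and the change from DMSO passed the test on both scalings (authors' scaling 1.40, SE 0.22, adjusted p = 0.000219, equal sums 0.62, adjusted p = 0.0205). RPS9 had values of 11375, 10997 and 9764 with DMSO, 21009.6, 19376 and 7202 with NSM and 31061, 30373 and 21708 with DSF+NSM. The third NSM library fell below the DMSO range, and the DSF+NSM libraries were all above DMSO (log2 fold change 1.36, SE 0.31, adjusted p = 0.00306), a call lost with equal sums (0.57, adjusted p = 0.119). RPS19 behaved alike, with values of 17478, 16378 and 14294 with DMSO and 46173, 46766 and 31656 with DSF+NSM (log2 fold change 1.35, SE 0.33, adjusted p = 0.00382, equal sums 0.57, adjusted p = 0.132). RPL19, a large subunit protein whose change lay just above the lower quartile of the family, had values of 35473, 34846 and 33353 with DMSO, 58691, 51604 and 38935 with NSM and 67773, 69143 and 54858 with DSF+NSM. It rose by 0.88 on the log2 scale (SE 0.15, adjusted p = 0.00029) and did not pass with equal sums (0.10, adjusted p = 0.533).

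The lowest members stayed near their DMSO values. RPS26 had values of 6316, 6461 and 4482 with DSF+NSM, against 6824, 6770.1 and 6205 with DMSO, and the groups overlapped (log2 fold change -0.22, SE 0.16, adjusted p = 0.264). RPS27L had values of 739, 641 and 446 with DSF+NSM, of which the first lay within the DMSO range (log2 fold change -0.38, SE 0.18, adjusted p = 0.092). RPL6 had values of 42853, 43398 and 35180.1 with DSF+NSM against 35007, 34998 and 32903 with DMSO, above DMSO in each library but not past the test (log2 fold change 0.23, SE 0.11, adjusted p = 0.102). With equal sums all 3 were called lower, at -1.0 for RPS26 (adjusted p = 2.85e-05), -1.16 for RPS27L (adjusted p = 4.46e-05) and -0.55 for RPL6 (adjusted p = 0.000264). RPL39L had values of only 175, 179.8 and 134 with DMSO and 201, 187 and 189 with DSF+NSM, close together but not overlapping (log2 fold change 0.25, SE 0.19, adjusted p = 0.3).

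**Figure D3:**
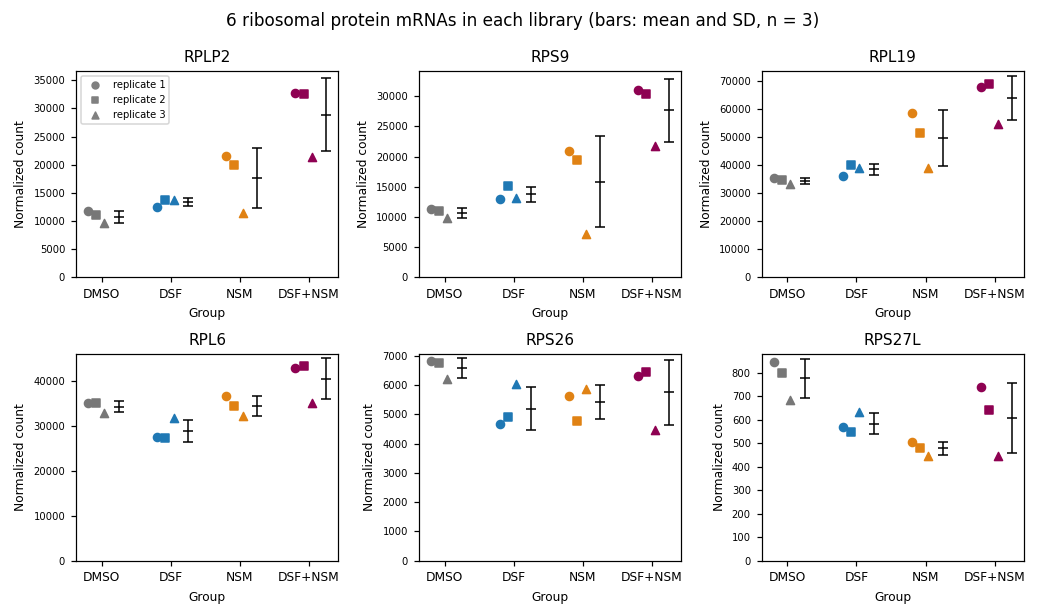
Normalized counts per library of RPLP2, RPS9, RPL19, RPL6, RPS26 and RPS27L in the 4 groups, with the group mean and SD (n = 3). RPLP2 rises from 10779.5 ± 1091 with DMSO to 28896 ± 6492 with DSF+NSM, and RPS27L lies at 777 ± 83.4 and 609 ± 149.

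Set against the single drugs, DSF+NSM stood above DSF in most of the family and above NSM in part of it, and the second of these turned with the scaling. Against DSF, 73 members were called higher (21.7% of all genes) and 0 lower (21.4%), with a median of 0.88, and at an unadjusted p under 0.05 75 passed. The members not called there were RPL10, RPL39L, RPLP0, RPS26, RPS27L and RPSA. With equal sums 17 were called higher (7.30%) and 3 lower (53.8%). Against NSM, 38 members were called higher (20.3% of all genes) and 0 lower (18.3%), with a median of 0.40. With equal sums 0 were called higher (9.83%) and 15 lower (44.9%), with a median of -0.11 beside -0.48 for all genes. The 15 lower ones included the tunnel proteins RPL4, RPL17, RPL22 and RPL26 as well as RPL5, RPL6, RPL7, RPL15 and RPS26.

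The count against NSM on the authors' scaling rested on single libraries. It was 3 without the first DSF+NSM library, 4 without the second, 59 without the third, 35 without the third NSM library and 1 in a fit of these 2 groups alone. RPS13, a small subunit protein that binds early in assembly, had values of 16874, 17473 and 13969 with NSM and 23571, 22769 and 19502 with DSF+NSM. Every DSF+NSM library was higher (log2 fold change 0.45, SE 0.12, adjusted p = 0.013), and with equal sums the log2 fold change was -0.066 (adjusted p = 0.652).

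The interaction is what remains of the DSF+NSM change once the log2 changes of both single drugs are taken off. It was positive for most members on the authors' scaling with a median of 0.33, beside 0.0058 over all genes. The test called it for RPL6, RPL7, RPL9, RPL21, RPL39 and RPS13, that is 6 members above 0 (12.1% of all genes) and 0 below (14.0%). RPS13 had the largest of these, 0.64 (SE 0.18, adjusted p = 0.0174). With equal sums the median was -0.085, 0 members were above 0 (6.81%) and 2 below (28.6%), the latter RPL28 (-0.48, adjusted p = 0.0141) and RPS25 (-0.43, adjusted p = 0.0391). On the authors' scaling the count was 0 without the first DMSO library, the second DSF library or the first DSF+NSM library, 15 without the third DSF+NSM library and 10 without the third NSM library.

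To find members that left the family, each library's values were also centred on the median of the 79 members, which takes out any common scaling. Relative to that median RPS27L, RPS26, RPL6, RPL39L and RPL15 lay furthest below with DSF+NSM, and RPLP2, RPS9, RPS19, RPS12 and RPL36A furthest above. With DSF+NSM 14 members were called above the median (9.42% of all genes on this scale) and 10 below (60.1%). With NSM the counts were 5 above (8.32%) and 6 below (44.6%), and with DSF 0 above (7.00%) and 2 below (3.25%), namely RPL6 and RPL7. The interaction was called above for 0 members (7.18%) and below for 0 (17.4%) with limma, and 4 had an unadjusted p under 0.05.

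Relative to the family RPS27L had log2 fold changes of -1.26 with NSM and -1.29 with DSF+NSM (SE 0.15 for both, limma, adjusted p = 2.83e-05 and 1.4e-05). RPS26 stood at -0.86 with NSM and -1.13 with DSF+NSM (SE 0.15, adjusted p = 0.00045 and 3.3e-05). RPL6 stood at -0.33 with DSF, -0.57 with NSM and -0.68 with DSF+NSM (SE 0.091, adjusted p = 0.0379, 0.000237 and 3.48e-05), the only member called on the same side in all 3. RPL39L stood at -0.49 with NSM and -0.67 with DSF+NSM (adjusted p = 0.031 and 0.00444). RPL15, RPL17, RPL23, RPL7, RPS7 and RPS27A, whose protein is fused to ubiquitin, completed the 10 below with DSF+NSM, at log2 fold changes of -0.50 for RPL15 to -0.23 for RPS27A.

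Among the 14 above with DSF+NSM, RPLP2 led with 0.49 (SE 0.14, adjusted p = 0.00871), followed by RPS12 with 0.43 (SE 0.11, adjusted p = 0.00461) and RPS18 with 0.40 (adjusted p = 0.00731). RPS9 and RPS19 had log2 fold changes as large, 0.44 and 0.44, but their spread kept them from the call (SE 0.24 and 0.25, adjusted p = 0.117 and 0.13). RPL28 and RPS27 were above with NSM, at 0.32 and 0.30 (adjusted p = 0.0177 and 0.0158), and with DSF+NSM, at 0.30 and 0.28 (adjusted p = 0.0163 and 0.0168). Without the third NSM library the counts rose to 30 above and 15 below with DSF+NSM. They rose to 17 and 7 with NSM and to 19 and 16 with DSF. Shares of all genes without that library are not given here, so these counts cannot be set against them. In that fit RPS9 and RPS19 passed limma's test with DSF+NSM (0.44, adjusted p = 0.000113, and 0.44, adjusted p = 0.000125).

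**Figure D4:**
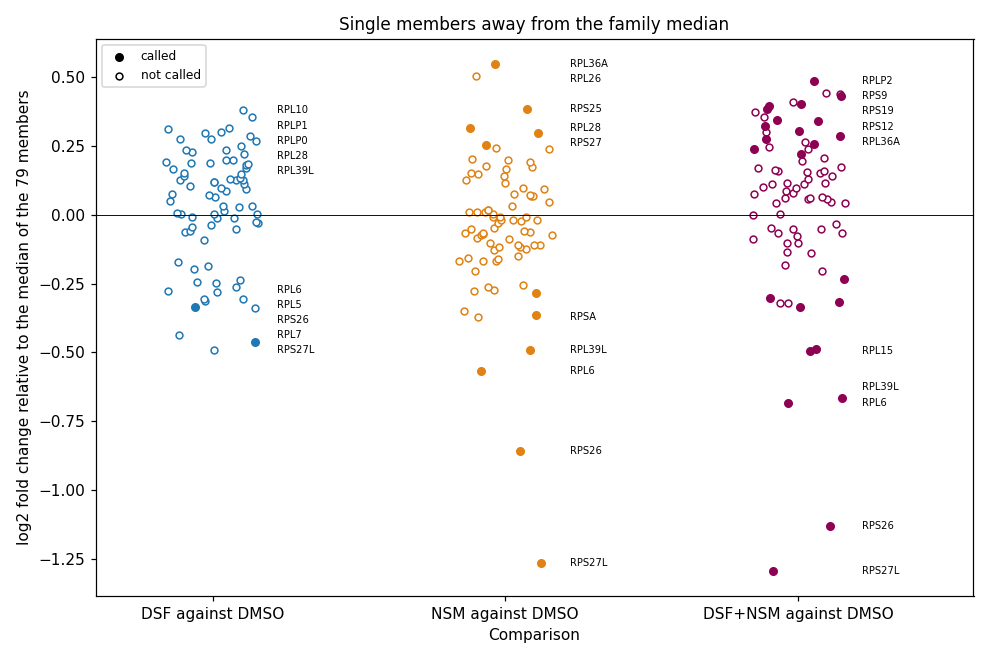
Log2 fold change of each member relative to the family median with DSF, NSM and DSF+NSM, 1 point a member, filled where called, with the 5 lowest and 5 highest of each comparison named. With DSF+NSM RPS27L and RPS26 lie at -1.29 and -1.13, while the highest member, RPLP2, lies at 0.49.

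The members were also grouped by their place in the ribosome. With DSF+NSM 45 of the 47 large subunit members were called higher (median 0.98) and 29 of the 32 small subunit members (median 1.02), against 28.3% of all genes. In both subunits 0 were called lower, against 24.5%. With equal sums 12 and 6 were called higher (11.4% of all genes) and 4 and 2 lower (56.1%). The same shares hold for the stalk and 5S proteins. The stalk proteins RPLP0, RPLP1 and RPLP2 all rose, with a median of 1.27. With equal sums only RPLP2 of the 3 was called. Of RPL5 and RPL11, the proteins that hold the 5S rRNA and bind MDM2 when free, both rose, by 0.59 and 1.20 (adjusted p = 0.00119 and 1.28e-05). With equal sums RPL5 turned to -0.19 (adjusted p = 0.134) and RPL11 stayed at 0.42 (adjusted p = 0.00368).

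All 9 proteins around the exit tunnel rose with DSF+NSM (median 0.84), with RPL17 lowest at 0.43 and RPL31 highest at 1.17, and with equal sums 1 was called higher and 1 lower. Of the 23 members whose loss causes Diamond-Blackfan anemia, a failure of red cell formation, 22 rose (median 0.97), the exception being RPS26. With equal sums 4 were called higher and 3 lower. For both lists the shares over all genes were 28.3% higher and 24.5% lower on the authors' scaling and 11.4% and 56.1% with equal sums. These lists overlap, and none is independent of the family's common change.

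RPS6, RPS14 and RPL3 rose with DSF+NSM, and RPSA did not pass the test. RPS6, the small subunit protein phosphorylated by the S6 kinases, had values of 53946, 52178 and 49042 with DMSO and 114727, 112111 and 86424 with DSF+NSM. Every DSF+NSM library was higher (log2 fold change 1.00, SE 0.13, adjusted p = 3.16e-05, relative to the family 0.088, adjusted p = 0.4). RPS14, whose loss underlies the anemia of the 5q- syndrome, rose by 1.08 on the log2 scale with DSF+NSM (SE 0.27, adjusted p = 0.00511) and RPL3, at the peptidyl transferase center, by 0.98 (SE 0.20, adjusted p = 0.00134). With equal sums neither passed (0.29 and 0.20, adjusted p = 0.345 and 0.379). RPSA, the laminin receptor precursor, had values of 22568, 22472 and 21275 with DMSO and 34352, 35579 and 30291 with DSF+NSM. These did not overlap, yet the difference missed the threshold (log2 fold change 0.59, SE 0.24, adjusted p = 0.0575), and without the third NSM library, it passed (0.59, adjusted p = 2.11e-05).

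The replicates of a member lay close together, with a median SD on the log2 scale of 0.088 in both the DMSO and DSF groups, 0.22 in the DSF+NSM group and 0.28 in the NSM group. For all genes the medians were 0.11, 0.13, 0.23 and 0.41 in the same order. Relative to the family median the members' SDs dropped to 0.032, 0.063, 0.068 and 0.18. Pooled over the groups, RPL30, RPL15 and RPL4 spread least (0.084, 0.086 and 0.10) and RPS19 and RPS9 most (0.36 and 0.35). Without the third NSM library RPS19 and RPS9 had SDs of 0.16 and 0.15, and the median SD of the members in the NSM group was 0.086.

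In that library 70 members lay below the mean of the other NSM libraries and 9 above, with a median log2 deviation of -0.41 and a range from -1.53 for RPS19 to 0.67 for RPL26. A deviation beyond 0.5 in either direction was found for 36 members (45.6%) and for 60.1% of genes outside the family. RPS19 had values of 33536, 31463 and 11230.4 in the NSM libraries, the third below every DMSO library (16050.0 ± 1617, SD, n = 3). Of 20 listed ribosomal protein pseudogenes 13 were lowest and 6 highest in the third of the NSM libraries. Their summed values of 1798, 1963 and 3598 in the NSM libraries, against 1470.4, 1373 and 1209 with DMSO, rested on a pair of names, since RPS14P3 held 173, 186 and 1084 of these and RPSAP58 140.4, 211 and 1065. Without this pair the sums were 1485, 1565 and 1449. RPS14 and RPSA themselves had 44032, 42352 and 17908 and 34287, 32266 and 14766, both lowest in the third library. Short reads shared between a gene and its pseudogenes may be split between them, so levels of members with close copies are uncertain.

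The GC content of the coding sequence, 42.1 to 63.0% over the members, moved with several of these differences. Its Spearman correlation with the log2 fold change with DSF was 0.66 over the 79 members and 0.48 over 11181 genes outside the family with an annotated coding sequence. It was -0.24 with NSM, 0.43 with DSF+NSM and -0.64 with the deviation of the third NSM library, against -0.048, 0.13 and -0.70 outside the family. The points share their libraries, so these are descriptions across genes. With DSF the 26 members of lowest GC content had a median log2 fold change of -0.035. The middle 27 had 0.16 and the 26 of highest GC content 0.28. The first group held RPL7, RPL5 and RPS27L but also RPL39L, the middle RPS26, and the last RPS9, RPL28 and RPLP1. Changes ran from -0.41 for RPS27L to 0.38 for RPL39L in the first group and from -0.088 to 0.46 in the last. In the third NSM library the same groups deviated by -0.17, -0.46 and -0.92, and every member of the last group was below the other NSM libraries. The part of base composition in the calls was not tested.

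**Figure D5:**
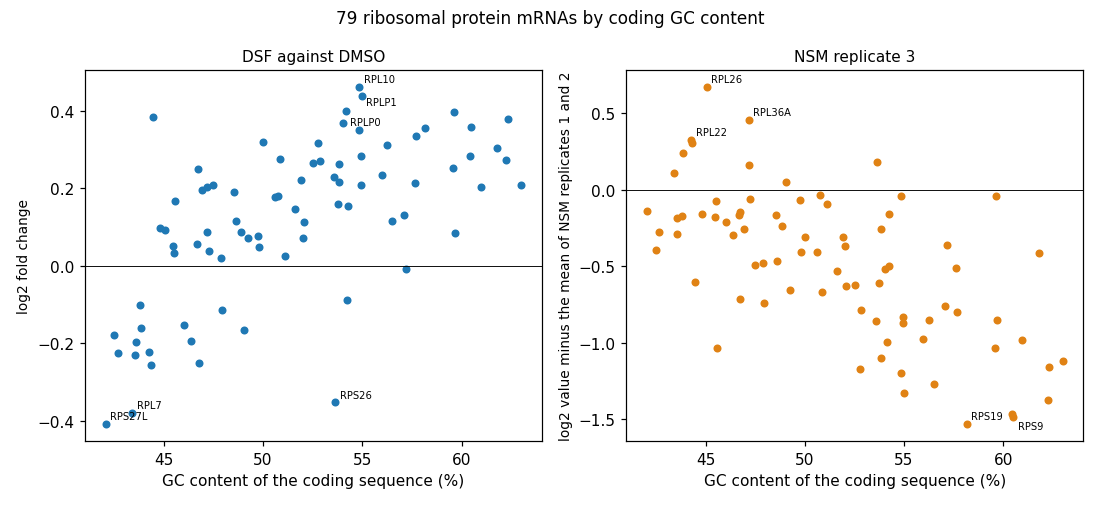
GC content of each member's coding sequence, in percent, against its log2 fold change with DSF (left) and against the log2 deviation of the third NSM library from the mean of the other two (right), 1 point a member. The DSF changes climb from a median of -0.035 in the 26 members of lowest GC content to 0.28 in the 26 of highest, and the deviations drop from -0.17 to -0.92.

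Genes that belong with the family but not to its naming rule moved with it only in part. Of 6 such ribosomal proteins 4 rose with DSF+NSM and 1 fell, and with equal sums 1 and 2 did, against 28.3% and 24.5% of all genes and 11.4% and 56.1% with equal sums. FAU, which encodes RPS30, rose by 0.82 on the log2 scale with DSF+NSM (adjusted p = 0.00439) but did not pass with equal sums (0.039, adjusted p = 0.87). RPL22L1, the paralog that replaces RPL22, rose by 1.67 with NSM and 1.36 with DSF+NSM (adjusted p = 4.49e-05 and 0.000162), and by 1.40 with NSM with equal sums (adjusted p = 0.000234). RPL7L1, a nucleolar relative of RPL7, fell by 1.08 with DSF+NSM (adjusted p = 3.57e-06).

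Of 17 other mRNAs known to start with a TOP tract, mostly translation factors, 11 rose and 0 fell with DSF+NSM (median 0.89), 11 and 0 with NSM (median 0.53) and 1 and 2 with DSF (median 0.012). With equal sums the counts with DSF+NSM were 4 and 5 (median 0.10). Of all genes 28.3% were called higher and 24.5% lower with DSF+NSM, 25.4% and 23.7% with NSM, 11.9% and 5.95% with DSF, and 11.4% and 56.1% with DSF+NSM and equal sums. The elongation factor EEF2 rose with DSF (0.56, adjusted p = 0.0281), but missed the threshold with equal sums (0.47, adjusted p = 0.0539). The initiation factor subunit EIF3E and the nucleolar protein NPM1 fell with DSF (-0.92, adjusted p = 0.0222, and -0.69, adjusted p = 0.0396). Both were also called lower with equal sums (-1.01, adjusted p = 0.0177, and -0.79, adjusted p = 0.0232). Among 10 regulators of such mRNAs 3 rose and 4 fell with DSF+NSM, against 28.3% and 24.5% of all genes. With equal sums 1 rose and 7 fell, against 11.4% and 56.1%. AKT1S1, an inhibitor of mTORC1, rose (1.64, adjusted p = 1.79e-06, with equal sums 0.85, adjusted p = 9.5e-05), and LARP1 and the mTORC1 subunit RPTOR fell (-0.52, adjusted p = 0.00171, and -0.54, adjusted p = 0.00998).

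Dedicated chaperones, which guard single ribosomal proteins until assembly, did not follow the family. Of 10 none rose and 7 fell with DSF+NSM (median -0.63), 5 with NSM and 4 with DSF, and with equal sums 8, 8 and 5. The shares of all genes called lower were 24.5, 23.7 and 5.95% in the same order, and with equal sums 56.1, 33.4 and 9.24%. RRS1 and HEATR3, which serve RPL5 and RPL11, fell with DSF+NSM (-2.11, adjusted p = 3.27e-07, and -2.01, adjusted p = 2.73e-06), and GRWD1, the chaperone of RPL3, fell as well (-1.47, adjusted p = 0.00129). TSR2, the chaperone of RPS26, had a log2 fold change of -0.036 (adjusted p = 0.841) with DSF+NSM on the authors' scaling. With equal sums TSR2 was called lower (-0.82, adjusted p = 0.000145). RPL3, RPL5 and RPL11 were all called higher in the same comparison on the authors' scaling.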

How the data were processed

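Poly(A) RNA of SHI-1 cells was sequenced in 12 libraries, 3 independent experiments for each of 4 groups, taken from the labels. The deposited values are normalized counts per gene, a signal scaled by the authors over 24 libraries with factors not given in the sources used here. The submitters' processing notes name bcl2fastq 2.19, Trimmomatic, Bowtie2, Picard, featureCounts and DESeq2, whereas the study's methods name STAR and Salmon, so how shared reads and strand were counted is uncertain. Since 32.2 to 32.9% of values above 0 were whole multiples of a library's smallest step (tolerance 0.01), whole reads could not be had back and count models were left out, and depth is an estimate.

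Genes with a value of at least 10 in at least 3 libraries were tested (13502). Log2(value + 1) of all 12 libraries was fitted with limma 3.58.1 (trend, robust) in R 4.3.3, with Benjamini-Hochberg adjustment over all tested genes and a threshold of 0.05, on the authors' scaling, with equal library sums, and relative to the median of the 79 members. The fit was tested on simulated data (3.03% of calls false for DSF+NSM against DMSO over 13502 genes). Alternatives were median-of-ratios scaling, pseudocounts of 0.1 and 10, no filter, a filter of at least 10 in every library, a replicate block, library weights, fits of only the groups compared and each library left out in turn. Equal sums without cytosolic rRNA genes and centring on genes outside the family were added after seeing the data.

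Members and lists were chosen with earlier results of these data known. Members named singly were the 5 lowest and 5 highest by log2 fold change in each comparison with DMSO, the extremes of the interaction, the spread and the level per coding kilobase, and fixed representatives such as RPL19, RPS6 and RPS14. Those that are named beyond this, such as RPL17, RPL31 and RPS18, were chosen after their values were seen. Some genes that the rule names are not reported here. Coding sequences came from GENCODE 44 (83.4% of tested genes) and start windows from RefSeq (GRCh38.p14).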

Additional observations from a re-analysis of the deposited data

Results flagged for a closer look

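On the authors' scaling the interaction of DSF and NSM passed limma's test above 0 for 6 of the 79 members, against 12.1% of all genes. Below 0 it passed for 0 members, against 14.0%. The member share was thus not above that of all genes, and 0 to 15 members were called as libraries were left out in turn. The log2 interactions were 0.64 for RPS13, 0.58 for RPL21, 0.58 for RPL39, 0.53 for RPL7, 0.49 for RPL9 and 0.48 for RPL6, with adjusted p = 0.0174, 0.0326, 0.0462, 0.0275, 0.0466 and 0.0428. With equal sums they were 0.22, 0.16, 0.16, 0.11, 0.069 and 0.065, and none passed. Relative to the family median none passed either, at 0.38, 0.32, 0.32, 0.27, 0.23 and 0.22. With DSF alone these 6 had log2 fold changes of -0.19, -0.23, -0.18, -0.38, -0.20 and -0.25 in the same order, and with DSF+NSM of 0.85, 0.85, 0.96, 0.61, 0.78 and 0.23. Coding GC content of the 6 was 46.4, 43.5, 42.5, 43.4, 43.6 and 46.8%, and its part in the result was not tested.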

How the results depend on the processing

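The direction of the family's change held with DSF, NSM and DSF+NSM against DMSO, and with DSF+NSM against DSF, under every alternative. The number of members called did not hold. Apart from equal sums, shares of all genes called under the alternatives are not given here. The counts therefore show only how far the number of members called moved. With equal sums 6 members were called with DSF, 35 with NSM, 24 with DSF+NSM, 20 for DSF+NSM against DSF, 15 against NSM and 2 for the interaction, and with cytosolic rRNA genes left out of the sums, an alternative chosen after seeing the data, 4, 34, 31, 24, 11 and 1. The median against NSM turned to -0.11 and -0.040, and that of the interaction to -0.085 and -0.043. Library weights gave 56 calls with DSF, 74 against NSM and 62 for the interaction, and relative to the family median 51 with DSF, 27 with NSM, 60 with DSF+NSM and 15 for the interaction. Fits of only the groups compared gave 50 with DSF and 1 against NSM, and relative to the family median 34 with DSF, 3 with NSM and 44 with DSF+NSM. Centring each library on the median of the tested genes outside the family, also chosen after seeing the data, gave 1 with DSF, 54 with NSM, 75 with DSF+NSM and 7 for the interaction. With median-of-ratios scaling 1 member was called with DSF. Whether the same replicate number pairs the libraries is uncertain. Over all tested genes, deviations from the group mean correlated at -0.064 to 0.278 over 18 pairs of the same number (median 0.057). Over 36 pairs of differing number they correlated at -0.233 to 0.239 (median -0.026). The replicate block left 1 member called with DSF and no other count changed by over 1.5 times.

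Leaving out 1 library at a time gave 0 to 22 calls with DSF, 44 to 76 with NSM, 73 to 77 with DSF+NSM, 62 to 76 for DSF+NSM against DSF, 3 to 59 against NSM and 0 to 15 for the interaction. Relative to the family median it gave 0 to 35 with DSF, 5 to 24 with NSM, 15 to 45 with DSF+NSM and 0 to 13 for the interaction. The upper ends came without the third NSM library, except against NSM and for the interaction on the authors' scaling, where they came without the third DSF+NSM library. No member was called with DSF without the first or second DMSO library or the first or second DSF library, nor for the interaction without the first DMSO, the second DSF or the first DSF+NSM library. Against NSM 3 were called without the first DSF+NSM library and 4 without the second.

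Of the 79 members 14 had a fold change of the other sign with equal sums with DSF, 5 with NSM, 14 with DSF+NSM, 11 for DSF+NSM against DSF, 53 against NSM and 53 for the interaction. Those that the naming rule covers are given as log2 fold changes with equal sums and then without rRNA genes. With NSM RPL39L had -0.19 and -0.18, RPL6 -0.27 and -0.26 and RPSA -0.070 and -0.065. With DSF+NSM RPL15 had -0.36 and -0.29, RPL39L -0.53 and -0.45, RPL5 -0.19 and -0.11, RPL6 -0.55 and -0.47, RPS27A -0.10 and -0.023, RPSA -0.19 and -0.11, and RPL41 -0.051 with equal sums only. RPL6 with NSM was also -0.0050 under median of ratios and -0.0054 with library weights, and lay between -0.044 and 0.050 as libraries were left out. Library weights turned the interaction of RPL26 to 0.34 and of RPL28 to 0.14. As libraries were left out the interaction of RPL26 ran from -0.28 to 0.092 and of RPL28 from -0.15 to 0.049, and with NSM the changes of RPL39L and RPSA ran from -0.052 to 0.28 and from -0.018 to 0.59. The cause of these changes was not tested, beyond the scaling itself.

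Depth, at 10.2 to 19.0 M estimated reads, left no member near 0, and RPL39L, the rarest, was the member most limited by counting error. In simulated data for DSF+NSM against DMSO, 200 of 13502 genes were changed. The fit recovered 59% of those changed by 1 on the log2 scale and 5% of those changed by 0.5. In the data far more genes were called, 3816 higher and 3309 lower, so the adjustment was less strict there. These rates therefore do not tell how likely a changed member was to be called. With 3 libraries a group, a member that missed the threshold is not shown to be unaltered.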

Other observations

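Read-through transcripts that join a ribosomal protein gene to its neighbour are listed under names of their own and were kept out of the family. RPL17-C18orf32 had values of 829, 716 and 688 with DMSO, 1474, 1308 and 2716 with NSM and 1500.1, 1592 and 1459 with DSF+NSM. RPL36A-HNRNPH2 had values of 924, 948 and 990.4 with DMSO, 693, 740.3 and 1822 with NSM and 1259, 1403 and 1286 with DSF+NSM. RPS10-NUDT3 had values of 1826, 1640.4 and 1557 with DMSO, 2507, 2629 and 2235 with NSM and 2410.4, 2202 and 1469.6 with DSF+NSM. The third NSM library was the highest of the 12 for RPL17-C18orf32 and RPL36A-HNRNPH2 but the lowest of its group for RPS10-NUDT3, whereas RPL17 itself had 19031, 18463 and 16169 and RPL36A 27467, 23819.7 and 35150.0 in the NSM libraries. Reads of a shared exon can count to either name.

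The pseudogene RPLP0P2 had values of 15.0, 6.04 and 7.84 with DMSO, 15.7, 18.4 and 132 with NSM and 33.3, 51.0 and 40.0 with DSF+NSM, while RPLP0 had 81129, 72040.3 and 38318 in the NSM libraries. The annotation names from 0 pseudogenes for RPS27L and RPL39L to 133 for RPL21. Over the 79 members the Spearman correlation of the number of named pseudogenes with the log2 fold change was -0.34 with DSF, 0.013 with NSM and -0.33 with DSF+NSM, a description across genes that share their libraries.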
